A study of Mus musculus with 9 samples.

Results

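Siglecs are receptors of the immunoglobulin superfamily that bind sialic acid, the sugar that caps many glycans on the surface of vertebrate cells. Here the family was followed in sorted mouse microglia through 6 genes, Siglech, Cd33, Siglece, Siglecg, Cd22 and Siglec1, taken by symbol from 23238 gene symbols. All 6 had an entry, and 5 of the 6 passed the filter on low counts and were tested. Siglec1 had too few counts.

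The cells were sorted from brain on day 1 as positive for CD45, CD11b and P2ry12, and each of the 9 libraries was a pool of 3 mice. All mice were WT, and the study's methods give them as female C57BL/6N mice of 12 weeks. Normal mice received no treatment. NMO mice received human NMO-IgG with human complement in the striatum of 1 hemisphere, an antibody model of neuromyelitis optica in which antibodies attack astrocytes. NMO+CL mice were also given liposomes with clodronate, intraperitoneally before that injection, to deplete monocytes and macrophages of the blood. Mice given control IgG or empty liposomes were not analysed here, so the injection, the antibody and complement cannot be told apart in NMO against Normal, nor clodronate from liposomes in NMO+CL against NMO.

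Most Siglecs of myeloid cells are inhibitory. Their tails carry tyrosine motifs that recruit phosphatases when the receptor binds sialic acid on a neighbouring molecule or on the same cell. A smaller number pair with the adaptor DAP12, and sialoadhesin, the product of Siglec1, is mainly an adhesion receptor. Siglech is one of the genes that distinguish microglia from other brain macrophages, and its product pairs with DAP12. Siglech was taken up with its earlier results in these libraries known, so its direction here is not independent evidence.

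The libraries held 5788234 to 7837219 counts each, and 12458 to 14315 genes had a count. The ribosomal RNA entry Rn45s took 16.0% to 31.0% of the counts. Of the 10 microglia markers listed, all tested, edgeR called 0 lower in NMO against Normal (4 had an unadjusted p under 0.05, and DESeq2 and limma-voom called 0). NMO+CL had 3 lower than in NMO, beside 1.07% of all genes tested (DESeq2 and limma-voom each called 5), and 7 lower than in Normal, beside 4.43% (8 and 9). Their summed level was 34455 to 39239 CPM (counts scaled to library size) in Normal, 30353 to 35000 in NMO and 20394 to 28454 in NMO+CL. P2ry12, the receptor of the sort, had 2055 to 2665 CPM in Normal, 1558 to 1756 in NMO and 266 to 449 in NMO+CL. In such pooled libraries fewer cells of a type and less RNA per cell cannot be told apart.

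5 of the 6 genes lie on mouse chromosome 7 (GRCm38, GENCODE M21). Cd22 spans 30865402 to 30880342 on the minus strand, Siglecg 43408204 to 43418358 on the plus strand, Cd33 43524216 to 43544428 and Siglece 43651070 to 43660161 on the minus strand, and Siglech 55768178 to 55778925 on the plus strand. Siglec1 lies on chromosome 2, 131069220 to 131086765, on the minus strand. RefSeq (GRCm38.p6) promoters, from 250 bases before to 50 bases after a start site, were found for 5 of the 6 genes. Those of the 3 genes with most of the family's counts are shown. Capitals mark each match to GAGGAA, the core letters bound by PU.1, a transcription factor of the myeloid lineage, on either strand (TTCCTC where it lies on the other). Siglech is at chr7:55767934-55768233 on the plus strand, Cd33 at chr7:43533122-43533421 and Siglece at chr7:43660112-43660411 on the minus strand. The RefSeq start site of Cd33 lies inside the interval that GENCODE gives the gene.
Siglech: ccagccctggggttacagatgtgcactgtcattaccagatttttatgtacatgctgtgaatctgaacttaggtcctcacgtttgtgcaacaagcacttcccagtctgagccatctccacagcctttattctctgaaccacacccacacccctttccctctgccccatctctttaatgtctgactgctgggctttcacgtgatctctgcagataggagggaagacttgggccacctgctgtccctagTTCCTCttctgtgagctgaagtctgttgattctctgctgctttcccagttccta
Cd33: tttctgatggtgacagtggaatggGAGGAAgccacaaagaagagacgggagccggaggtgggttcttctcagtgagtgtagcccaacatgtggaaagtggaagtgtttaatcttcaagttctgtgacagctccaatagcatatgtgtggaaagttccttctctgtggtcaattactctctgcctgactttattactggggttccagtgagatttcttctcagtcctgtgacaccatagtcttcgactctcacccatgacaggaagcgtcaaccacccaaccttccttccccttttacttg
Siglece: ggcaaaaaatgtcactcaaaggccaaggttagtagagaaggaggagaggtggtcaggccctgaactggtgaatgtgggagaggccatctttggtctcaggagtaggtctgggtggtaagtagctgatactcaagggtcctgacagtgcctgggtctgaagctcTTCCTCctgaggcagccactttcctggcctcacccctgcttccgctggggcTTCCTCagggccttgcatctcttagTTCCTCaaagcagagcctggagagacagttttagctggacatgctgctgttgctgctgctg

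The match in Siglech begins 4 bases before the start site and that in Cd33 226 bases before it. Siglece held 3, which begin 87, 36 and 11 bases before its start site. 1 of the Siglecg promoters held 2 matches and the window of Cd22 none. Of 32851 mouse promoters of 300 bases, 28.3% held at least 1 match and 4.82% at least 2. A match is a run of letters and no measure of binding.

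Siglech was the most abundant Siglec in every library. The Normal libraries had 1236, 1432 and 1403 CPM, the NMO libraries 715, 811 and 693 CPM, and the NMO+CL libraries 324, 273 and 392 CPM. All NMO libraries were below all Normal libraries, and all NMO+CL libraries were below all NMO libraries. Such a gap was seen in 8.2% of all genes tested for the first step and 9.22% for the second. In NMO against Normal Siglech fell by 0.88 on the log2 scale (standard error 0.17, 1.84-fold, edgeR quasi-likelihood test, adjusted p = 0.0287). It was 1 of 5 members called, and 0.0244% of all genes tested were called lower in that comparison (0.496% in either direction). Against NMO, Siglech in NMO+CL fell by 1.16 (standard error 0.17, 2.24-fold, edgeR adjusted p = 0.00291), again 1 of 5 members called, where 1.07% of all genes tested were called lower (1.59% in either direction). Against Normal it fell by 2.04 (standard error 0.18, 4.11-fold, edgeR adjusted p = 4.17e-06), 1 of 5 members called, where 4.43% were called lower (9.23% in either direction). The comparisons share libraries and are not independent of one another. P2ry12 was also lower in all NMO than in all Normal libraries and lower again in all NMO+CL libraries. The summed microglia markers were lower in all NMO+CL libraries than in the others, whereas NMO and Normal overlapped (NMO replicate 2 at 35000 CPM, Normal replicate 1 at 34455). The part of either in the Siglech result was not tested. Siglech also marks plasmacytoid dendritic cells. Of 8 of their markers Klk1 was at 0 in all 9 libraries and Ly6d and Spib reached at most 2.59 and 3.53 CPM. Bst2 ran from 3.52 to 13.5 CPM and Ccr9 from 2.92 to 8.97 CPM. Cox6a2 had 1.81 to 10.8 CPM in Normal, 7.18 to 12.6 in NMO and 17.1 to 30.8 in NMO+CL, the opposite order to Siglech. Tcf4, which microglia express too, had 519 to 604, 403 to 428 and 280 to 333 CPM in the same order of groups, lower at each step without overlap, like Siglech. With Irf8, also a microglia gene, it carried most of the summed list, which was 1563 to 1580 CPM in Normal, 1513 to 1654 in NMO and 1206 to 1324 in NMO+CL. The part of these cells in the Siglech result was not tested.

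The call between NMO and Normal depended on single libraries. It was lost without Normal replicate 1 (adjusted p = 0.0591), 2 (0.150) or 3 (0.117), without NMO replicate 1 (0.133) or 3 (0.0791), and with library totals alone (0.0717), all by edgeR. The log2 fold change stayed between -0.95 and -0.77 over the 17 alternatives. A stretch of up to 79 bases in the last 500 bases of the Siglech transcript was at least 95% identical to transcripts of 115 other genes, so some reads could have been counted at more than 1 of them. No pair of the 6 Siglecs shared such a stretch.

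**Figure D1:**
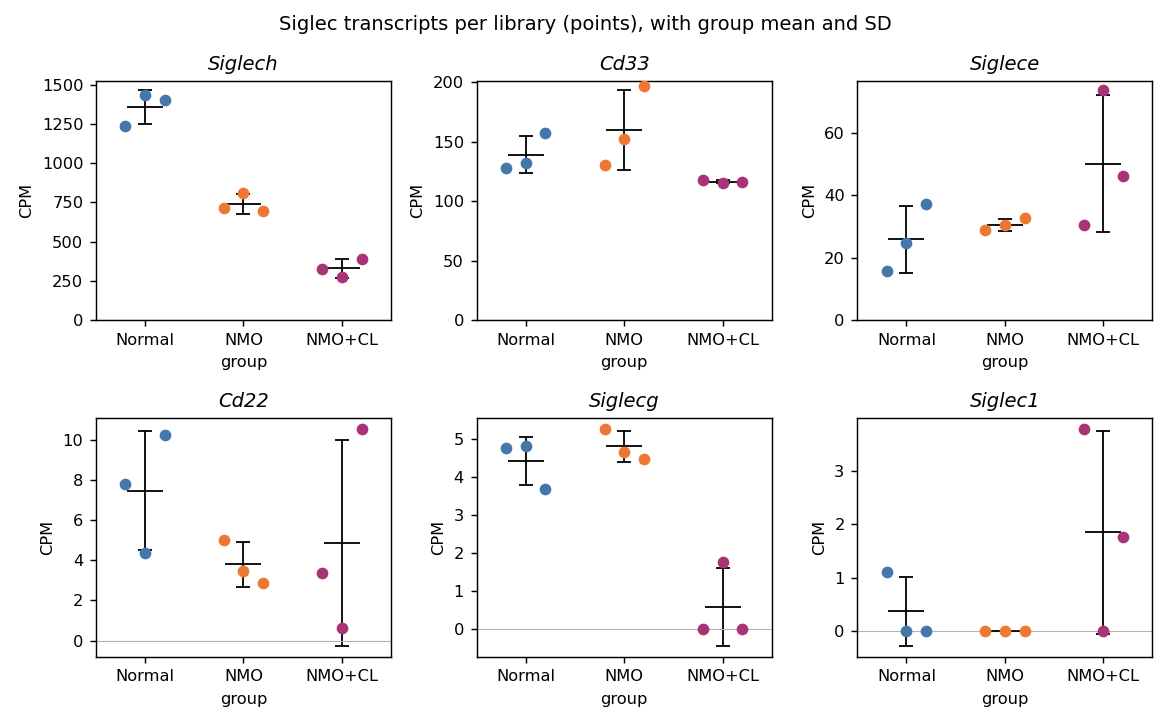
Level of each of the 6 Siglec genes in CPM (vertical axes, each from its own range) by group (horizontal axes), with 1 point per library and a bar at the mean with the SD (n = 3). Siglech descends from Normal (1236 to 1432 CPM) through NMO (693 to 811) to NMO+CL (273 to 392) with no overlap, the Cd33 and Siglece levels are far smaller, and Siglecg is at 0 in 2 of the 3 NMO+CL libraries.

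Cd33 encodes a Siglec of myeloid cells whose human counterpart is an inhibitory receptor linked to the risk of Alzheimer's disease. Its levels were 128, 132 and 157 CPM in Normal, 131, 153 and 197 CPM in NMO, and 118, 115 and 116 CPM in NMO+CL. Normal and NMO overlapped, while each NMO+CL library was below every library of the other groups. Of all genes tested, 9.22% were lower in this way against NMO and 14.9% against Normal. No edgeR adjusted p passed the threshold. The log2 fold change was 0.20 in NMO against Normal (95% interval -0.22 to 0.63, adjusted p = 0.880). For NMO+CL it was -0.46 against NMO (-0.88 to -0.03, adjusted p = 0.356) and -0.26 against Normal (-0.68 to 0.17, adjusted p = 0.546). None of the 17 alternatives called it. The intervals of NMO and NMO+CL against Normal do not reach the fitted value of Siglech in either comparison, but the difference between the genes was not tested.

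Siglece encodes an inhibitory receptor of neutrophils, monocytes and macrophages that recruits tyrosine phosphatases. Its levels were 15.8, 24.5 and 37.2 CPM in Normal, 28.7, 30.4 and 32.5 CPM in NMO, and 30.3, 73.6 and 46.1 CPM in NMO+CL. The groups overlapped, and NMO+CL replicate 2 was the highest library. The log2 fold change was 0.24 in NMO against Normal (standard error 0.36, edgeR adjusted p = 0.946), while NMO+CL differed by 0.71 from NMO (0.36, 0.450) and by 0.95 from Normal (0.37, 0.121). Without NMO+CL replicate 1 the last value was 1.21 and passed the threshold (edgeR adjusted p = 0.0494), and over all 17 alternatives it lay between 0.57 and 1.31. In that comparison Siglece differed in sign from the 4 other members tested.

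Neutrophils also express Siglece, so their markers were set beside it. The summed neutrophil markers were 101 to 585 CPM in Normal, 155 to 482 in NMO and 299 to 1368 in NMO+CL. S100a8 and S100a9 made up 504 and 611 CPM of the highest sum. Csf3r, on the same list, had 49.2 to 81.8 CPM in Normal, 53.5 to 98.0 in NMO and 25.0 to 53.5 in NMO+CL and was not called (log2 fold change of NMO+CL against NMO -0.97, edgeR adjusted p = 0.183). The sums, like Siglece, overlapped between groups and reached their highest value in NMO+CL, the sum in replicate 1 and Siglece in replicate 2. The summed monocyte markers were 25.6 to 57.8, 40.0 to 82.7 and 50.4 to 105 CPM in the 3 groups, with the highest value in NMO+CL replicate 1. The members of this list differed in sign in NMO+CL against NMO, and edgeR called none. The log2 fold changes of Fn1, Chil3 and Ms4a4c were 1.79, 1.58 and 1.29. Ccr2, Vcan and Plac8 had -1.44, -1.31 and -1.24, and Ly6c2 and F10 had -0.25 and -0.20. The part of other cells in the Siglece levels was not tested.

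Siglecg and Cd22 encode inhibitory receptors best known from B cells, where they dampen signals from the antigen receptor. Siglecg had 30, 32 and 22 counts in Normal, 42, 39 and 28 in NMO, and 0, 11 and 0 in NMO+CL. The 6 libraries without clodronate stood at 3.70 to 5.28 CPM. In the 2 NMO+CL libraries without a count, 3 counts, the most that 0 allows, would be 0.438 and 0.480 CPM. Every NMO+CL library was thus below every other library. Such a gap was seen in 9.22% of all genes tested against NMO and in 14.9% against Normal. The log2 fold change of -2.99 in NMO+CL against NMO had a standard error of 1.46 (edgeR adjusted p = 0.419), and that of -2.87 against Normal one of 1.46 (adjusted p = 0.264). Between NMO and Normal it was 0.12 (standard error 1.32, adjusted p = 0.994). Without NMO+CL replicate 2 the comparison with Normal passed the threshold (edgeR adjusted p = 0.0332), and the 2 NMO+CL libraries that remain then hold 0 counts.

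Cd22 had 49, 29 and 61 counts in Normal, 40, 29 and 18 in NMO, and 23, 4 and 66 in NMO+CL. Its levels ran from 4.36 to 10.3, from 2.88 to 5.03 and from 0.648 to 10.6 CPM, so the NMO+CL group alone spanned all the others. The log2 fold change was -0.97 in NMO against Normal (standard error 0.92, edgeR adjusted p = 0.867), while NMO+CL stood 0.35 from NMO (0.92, 0.942) and -0.62 from Normal (0.92, 0.795). The sign of the value against NMO turned without NMO+CL replicate 3 (-0.91). Exons of Cd22 overlap those of Gm29439 on the opposite strand by 479 bases, and since the use of strand in counting was not stated, reads of the 2 cannot be told apart. The B cell markers had a summed level of 12.9 to 22.3 CPM in Normal, 9.13 to 20.5 in NMO and 4.05 to 14.4 in NMO+CL, of the same order as Cd22 and Siglecg themselves. The groups overlapped, with the lowest library in NMO+CL as for Siglecg, and the part of B cells in the Cd22 and Siglecg counts was not tested. Of the sum Cd79b made up 3.40 to 17.8 CPM, while Cd79a and Ms4a1 reached at most 1.91 and 1.35 CPM.

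Siglec1 encodes sialoadhesin, which marks macrophages of lymphoid organs and brain borders and is induced by interferon. It had 7, 0 and 0 counts in Normal, 0 in each NMO library, and 26, 0 and 11 in NMO+CL. 3 of the 9 libraries thus held all of it, 2 of them from NMO+CL. In an exact two-sided permutation test of CPM, for which 0.1 is the smallest p that 3 against 3 libraries allow, p was 1 for NMO against Normal and 0.4 for each comparison of NMO+CL. Without the filter on low counts edgeR gave adjusted p values of 0.625, 0.399 and 0.705. Its transcript end shared stretches with 22 other genes. The summed border macrophage markers ran from 160 to 308 CPM in Normal, from 10.8 to 194 in NMO and from 224 to 412 in NMO+CL, and their part in the Siglec1 counts was not tested. Among them Cbr2 made up most of the sum in all libraries but NMO replicate 2. It had 125 to 272 CPM in Normal, 185 to 395 CPM in NMO+CL, and 159, 0 and 155 CPM in NMO. Mrc1 averaged 15.7 CPM in Normal and 14.3 in NMO+CL, Lyve1 8.03 and 6.14, Pf4 4.84 and 2.36, and Cd163 1.04 and 0. In the same order F13a1 averaged 1.27 and 7.11 CPM, Ms4a7 0.673 and 0.751, and Cd209f 0.0531 and 0.632. Of 11 interferon-induced genes tested, edgeR called 0 in NMO against Normal (1 at an unadjusted p under 0.05, 1 by DESeq2 and 0 by limma-voom), 0 in NMO+CL against NMO (0 at an unadjusted p under 0.05 and 0 by each other tool), and 1 higher in NMO+CL against Normal (1 by each other tool), beside 4.79% of all genes tested. That gene was Ifitm3 (log2 fold change 1.64, edgeR adjusted p = 0.00356), which restricts virus entry.

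**Figure D2:**
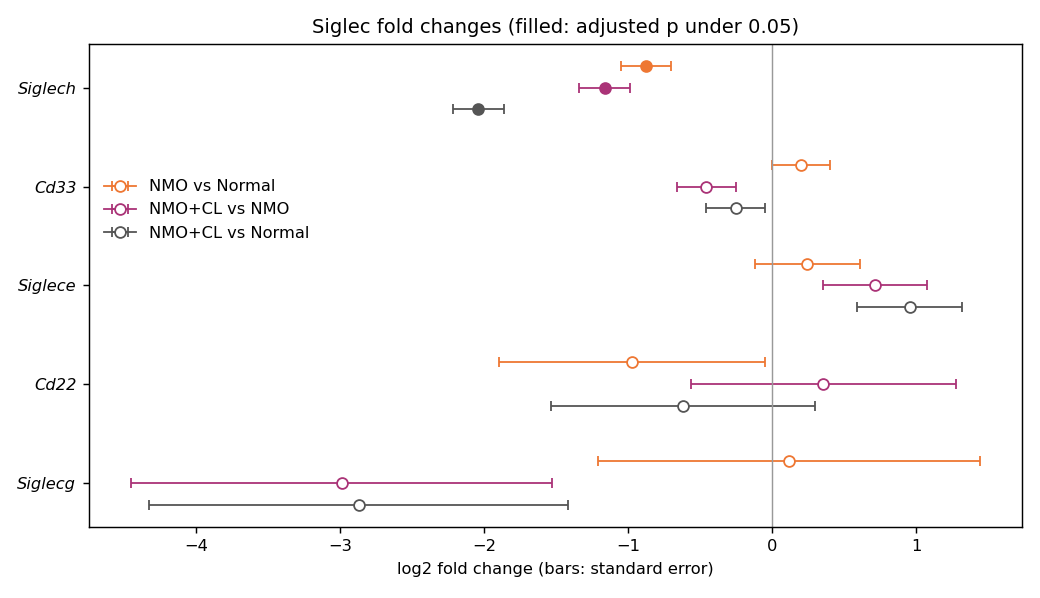
Log2 fold changes of the 5 tested Siglecs (rows) in the 3 comparisons (colours) with standard errors as bars; filled points passed an adjusted p of 0.05. The 3 Siglech values, -0.88, -1.16 and -2.04, are filled and the other 12 points are open.

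Levels were also divided by the length of the longest coding transcript. Reads of 3′ ends are not proportional to length, so this division can itself shift the order of genes. In Normal the means were 590 CPM per kb for Siglech, 24.3 for Cd33, 14.0 for Siglece, 1.88 for Cd22, 1.73 for Siglecg and 0.0582 for Siglec1. All neighbours in this order were separate in their libraries except Cd22 and Siglecg, which overlapped. In NMO Siglech stood at 321 CPM per kb, ahead of Cd33 at 28.0, Siglece at 16.5, Siglecg at 1.87, Cd22 at 0.955 and Siglec1 at 0, with no overlap between neighbours. In NMO+CL Siglech remained first at 143 CPM per kb. Siglece at 27.0 and Cd33 at 20.4 CPM per kb overlapped there, and so did Cd22, Siglec1 and Siglecg at 1.22, 0.290 and 0.231. In CPM, which needs no division by length for reads of 3′ ends, Cd33 was above Siglece in each NMO+CL library (115 to 118 against 30.3 to 73.6 CPM). The mean of Siglece passed that of Cd33 only after the division.

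The make-up of the family followed Siglech. As mean ± SD over 3 libraries, the 6 genes summed to 1535 ± 122 CPM in the Normal group, 939 ± 59.4 in NMO and 504 ± 55.1 in NMO+CL. The 5 genes other than Siglech summed to 177 ± 27.2, 199 ± 34.4 and 174 ± 17.8 CPM, and these 3 ranges overlapped. Siglech accounted for 88.7%, 89.6% and 87.1% of the family's counts in the Normal libraries, 80.8%, 80.9% and 74.5% in NMO, and 67.6%, 58.8% and 69.2% in NMO+CL. No group overlapped another in this share. The mean share fell by 9.71 percentage points in NMO against Normal, by 13.6 between NMO and NMO+CL, and by 23.3 between Normal and NMO+CL, each with an exact two-sided permutation p of 0.1 (0.1 after adjustment over 3 tests), the smallest that 3 against 3 allow. Within the pair Cd33 and Siglece, a quantity chosen after its values were seen, the share of Siglece was 15.2% ± 4.10 for Normal, 16.3% ± 1.94 for NMO and 29.3% ± 9.28 for NMO+CL.

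**Figure D3:**
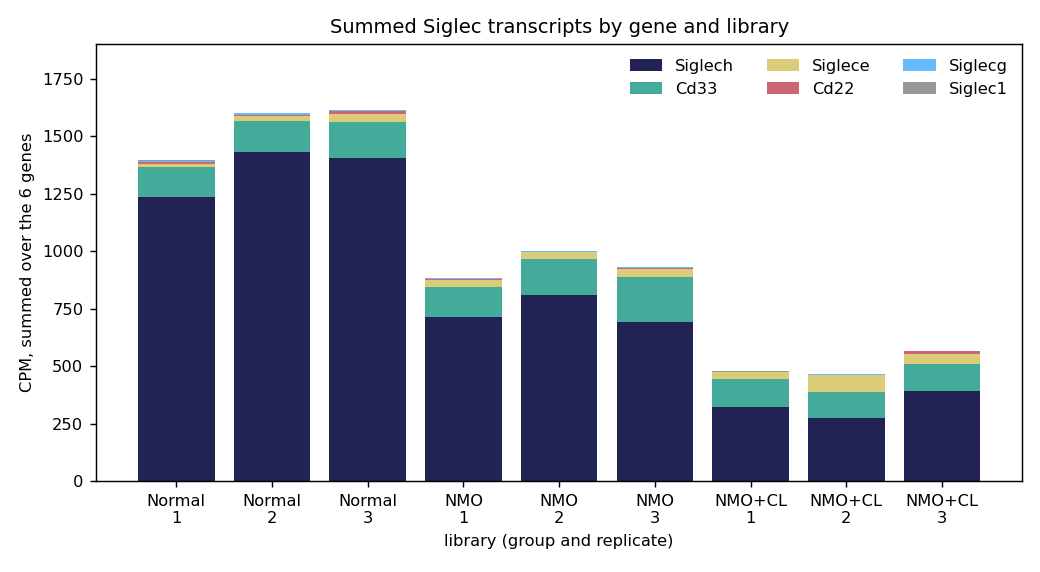
Summed level of the 6 Siglec genes in CPM (vertical axis) in each of the 9 libraries (horizontal axis), split by gene. The bars shorten from 1394 to 1612 CPM in Normal to 465 to 567 CPM in NMO+CL, and while the Siglech segment shortens, the other 5 segments together stay between 156 and 237 CPM.

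Genes whose pattern over the 9 libraries was closest to that of a Siglec were found as the smallest root mean square difference of log2 CPM, each gene centred on its own mean, among 8838 genes whose counts averaged 50 or more. For Siglech these were Lmo2, a transcriptional cofactor (difference 0.12), Bach2, a transcriptional repressor (0.15), and Crybb1, a crystallin gene (0.17), where Siglech itself had an SD of 0.91 over the libraries. In the order Normal, NMO and NMO+CL, Lmo2 had mean levels of 183, 109 and 45.2 CPM, Bach2 76.5, 41.8 and 19.1 CPM, and Crybb1 98.3, 58.0 and 24.9 CPM. For Cd33, whose SD was 0.25, they were Parp2 (0.06), Cant1 (0.07) and Kdm2a (0.08). For Siglece, whose SD was 0.61, they were Rusc1 (0.20), Gm6251 (0.23) and R3hdm1 (0.23). The libraries share their group means, so this likeness is a description of 9 points.

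Of the other Siglecs, Siglecf, which encodes a receptor of eosinophils and alveolar macrophages, had 15.5, 18.2 and 14.0 CPM in Normal, 14.3, 14.5 and 13.8 CPM in NMO, and 1.75, 8.91 and 23.7 CPM in NMO+CL. The first 6 libraries lay close together, while those of NMO+CL ran from below to above all of them. Mag, the myelin-associated glycoprotein of oligodendrocytes, had 31.8 to 62.4 CPM in Normal, 21.6 to 36.2 in NMO and 19.8 to 45.2 in NMO+CL. Both were tested, and edgeR called 0 of 2 in each comparison, with 0 at an unadjusted p under 0.05 and 0 by DESeq2 and limma-voom. Siglec15 had 3 counts in 1 Normal library and 0 in the other 8.

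Of the partners that carry Siglec signals into the cell, edgeR called 1 in 1 comparison. Tyrobp, which encodes DAP12, the partner of the Siglech product, had 758, 595 and 511 CPM in Normal, 563, 716 and 614 CPM in NMO, and 769, 701 and 435 CPM in NMO+CL. The groups overlapped throughout. Its log2 fold changes were 0.02, 0.01 and 0.03 in the 3 comparisons, with 95% intervals from -0.43 to 0.48, from -0.44 to 0.46 and from -0.42 to 0.48 (edgeR adjusted p = 0.992, 0.996 and 0.966). Ptpn6, the phosphatase that inhibitory Siglecs recruit, had 323 to 325 CPM in Normal, 336 to 380 in NMO and 313 to 361 in NMO+CL. It was not called in any comparison (log2 fold changes 0.14, -0.07 and 0.07, edgeR adjusted p = 0.917, 0.932 and 0.887).

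Of the 12 signalling genes, all tested, edgeR called 0 in NMO against Normal (2 at an unadjusted p under 0.05) and 0 in NMO+CL against NMO (1), and DESeq2 and limma-voom also called 0 in both. In NMO+CL against Normal 1 was called higher, where 4.79% of all genes tested were called higher (DESeq2 called 2 of the 12 in either direction and limma-voom 1). This was Socs3, an inhibitor of cytokine signals that has been tied to the turnover of Siglec proteins. Its levels were 128, 132 and 198 CPM in Normal, 237, 336 and 137 CPM in NMO, and 286, 361 and 386 CPM in NMO+CL. NMO overlapped both other groups, while all NMO+CL libraries were above all Normal libraries, as in 13.8% of all genes tested. The rise of 1.17 on the log2 scale (standard error 0.27, edgeR adjusted p = 0.0108) was not called without Normal replicate 1 (0.0597) or 2 (0.0644). The median log2 fold change of the 12 genes was 0.00, -0.08 and -0.02 in the 3 comparisons, beside -0.01 for all genes tested in each.

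The enzymes that make, activate and remove sialic acid did not pass the test. Of 14 such genes 12 were tested, and edgeR called 0 in each comparison, with 0, 1 and 3 at an unadjusted p under 0.05 and 0 by DESeq2 and limma-voom. Gne, which encodes the first enzyme of sialic acid synthesis, had log2 fold changes of 0.70, -0.22 and 0.48 (edgeR adjusted p = 0.634, 0.894 and 0.571). Cmas, which encodes the enzyme that activates sialic acid for transfer, had 52.1, 79.5 and 86.5 CPM in Normal, 88.0, 70.7 and 103 CPM in NMO, and 99.5, 113 and 147 CPM in NMO+CL. All NMO+CL libraries were above all Normal libraries, as were 13.8% of all genes tested, and the log2 fold change of 0.72 had an edgeR adjusted p of 0.0790.

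The sialyltransferases, which attach sialic acid to glycans and so form what Siglecs bind, included 5 genes that fell. Of 20 listed 12 were tested. In NMO against Normal edgeR called 0 (3 at an unadjusted p under 0.05, 0 by DESeq2 and 0 by limma-voom). Between NMO+CL and NMO 2 were called lower and 0 higher, and between NMO+CL and Normal 5 were called lower and 0 higher, where 1.07% and 4.43% of all genes tested were called lower. The median log2 fold change was -0.32, -0.65 and -1.21 in the 3 comparisons, beside -0.01 for all genes tested in each, and 7, 8 and 10 of the 12 values were negative.

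St6gal1 (chromosome 16) encodes the enzyme that makes the main glycan bound by CD22. It had 60.2, 58.1 and 48.3 CPM in Normal, 37.3, 32.6 and 27.5 CPM in NMO, and 9.92, 15.1 and 17.8 CPM in NMO+CL. The groups did not overlap at either step, as with Siglech. Such a gap was seen in 8.2% of all genes tested for the first step and 9.22% for the second. In NMO+CL against Normal it fell by 1.96 on the log2 scale (standard error 0.32, edgeR adjusted p = 7.60e-04). The values of -0.77 in NMO against Normal (adjusted p = 0.409) and -1.19 in NMO+CL against NMO (0.0695) did not pass the edgeR threshold, and the second did with DESeq2 (0.0254) and without the filter (0.0330).

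St3gal2 (chromosome 8), which encodes an enzyme that caps gangliosides and O-linked glycans, had 107, 79.8 and 83.3 CPM in Normal, 64.5, 78.0 and 62.6 CPM in NMO, and 28.3, 36.0 and 33.0 CPM in NMO+CL. All NMO+CL libraries were far below the others. A gap without overlap was seen in 9.22% of all genes tested against NMO and in 14.9% against Normal. It fell by 1.08 against NMO (standard error 0.24, edgeR adjusted p = 0.0262) and by 1.47 against Normal (0.24, 8.31e-04). The call against NMO was lost in 8 of 17 alternatives, where the adjusted p reached 0.103. Those that left out a library were Normal replicate 2 (0.0506) or 3 (0.0541), NMO replicate 1 (0.0840) or 2 (0.0997), and NMO+CL replicate 1 (0.0709), 2 (0.0918) or 3 (0.0507).

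St8sia6 (chromosome 2) encodes an enzyme that adds a further sialic acid to one already in place. It had 10.5, 3.46 and 15.8 CPM in Normal, 13.7, 6.70 and 12.5 CPM in NMO, and 0, 0 and 0.160 CPM in NMO+CL. The NMO+CL libraries held at most 1 count each, whereas all others were well above. Of all genes tested, 9.22% were lower without overlap against NMO and 14.9% against Normal. With 3 counts set for each NMO+CL library, the mean level was 23.4-fold below that of NMO and 21.2-fold below that of Normal. These ratios are no strict limits, since 3 counts is the bound for 0, replicate 3 held 1 count, and they leave out the spread of the other groups. NMO+CL was called lower against NMO (edgeR adjusted p = 0.00393, lower in 3 of 3 libraries) and against Normal (7.46e-04). With limma-voom the comparison with NMO was not called (0.0806).

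St3gal6 (chromosome 16) and St3gal5 (chromosome 6), the latter encoding the enzyme that opens ganglioside synthesis, were called lower in NMO+CL against Normal. St3gal6 had 203, 216 and 159 CPM in Normal, 161, 114 and 130 CPM in NMO, and 77.5, 69.0 and 82.0 CPM in NMO+CL, a fall of 1.34 on the log2 scale (standard error 0.21, edgeR adjusted p = 5.99e-04). St3gal5 had 151, 274 and 261 CPM in Normal, 129, 153 and 163 CPM in NMO, and 85.4, 94.3 and 146 CPM in NMO+CL, a fall of 1.08 (0.25, 0.0113). For each gene every NMO+CL library was below every Normal library, as in 14.9% of all genes tested. For St3gal5, NMO+CL replicate 3 came close to Normal replicate 1. The call of St3gal5 was lost without Normal replicate 2 (0.0702) or 3 (0.0651) and without NMO+CL replicate 2 (0.0620). St3gal1, of the same family, had the opposite sign with 1.44 in NMO+CL against Normal and was not called (edgeR adjusted p = 0.0957).

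**Figure D4:**
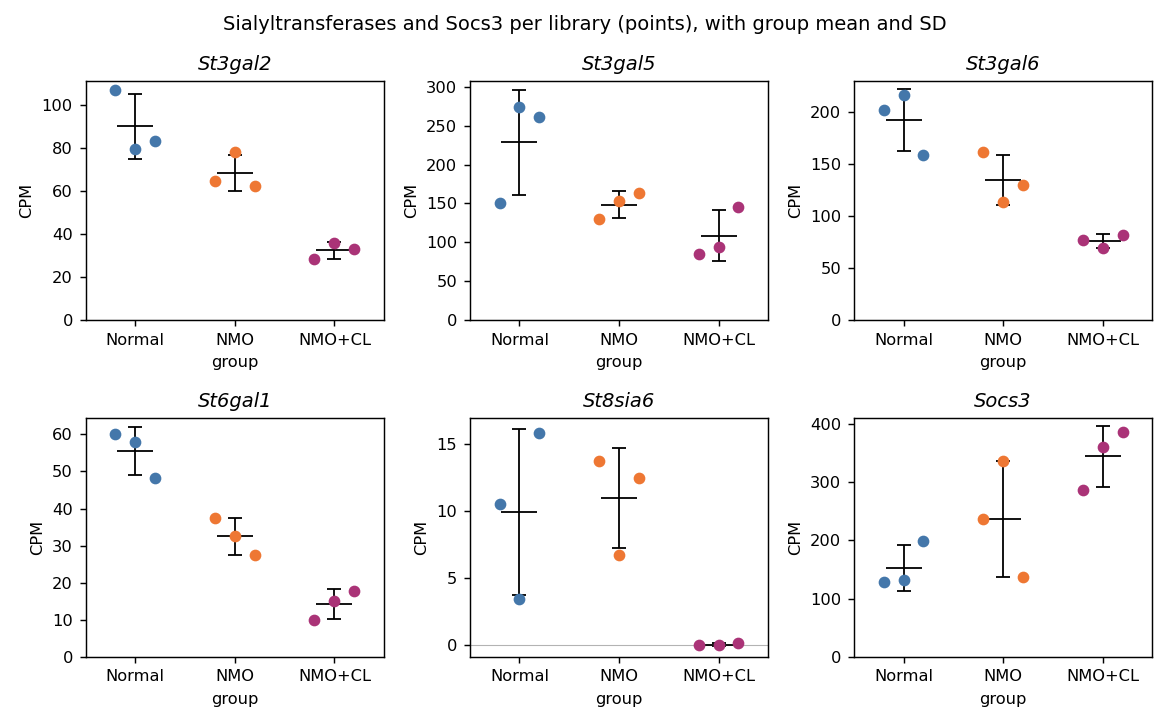
Level in CPM (vertical axes) of the 5 sialyltransferases called lower in NMO+CL against Normal, and of Socs3, by group (horizontal axes), with 1 point per library and the mean with the SD (n = 3). St6gal1 steps down from 48.3 to 60.2 CPM in Normal to 9.92 to 17.8 CPM in NMO+CL, St8sia6 is at or near 0 in each NMO+CL library, and Socs3 is higher in NMO+CL (286 to 386 CPM) than in Normal (128 to 198 CPM).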

How the data were processed

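RNA of sorted microglia was measured in 9 libraries, 3 per group. The authors prepared QuantSeq 3′ libraries, read 75 bases from 1 end, used Bowtie2 for alignment and counted unique and multiple alignments per gene with bedtools. The submitters' processing notes name the build mm10, and neither the annotation nor whether counting used strand is given in the sources used here. The deposited values are raw read counts.

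Of 23282 entries, repeated symbols (35) were summed. Counts were analysed in R 4.3.3 with edgeR 4.0.16. filterByExpr (minimum count 10, minimum total 15) left 12292 genes, scaled by TMM. A quasi-likelihood model with 1 coefficient per group was fitted to all 9 libraries. F-tests were two-sided, with Benjamini-Hochberg adjustment over all genes tested, and calls were made at an adjusted p under 0.05. CPM are counts relative to the TMM-scaled library size. Errors are SDs, and p values measure the spread between pools. The common biological coefficient of variation was 0.519. Counts of replicates differed by more than counting noise (chi-square per degree of freedom 23.2 to 55.5). Where a library had 0 counts, up to 3 remain possible at 95% confidence, for counting error only.

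The members and gene lists were chosen with earlier results of these data known. Named were all Siglecs with an entry, called genes of the lists on Siglec signalling, sialic acid synthesis and sialyltransferases, a few fixed genes of those lists, the 3 genes most alike each member whose counts averaged 50 or more, and markers. Same-numbered libraries did not deviate together (correlations -0.0148 to 0.0302), so numbers were not treated as pairs. Transcript ends were compared with blastn 2.17.0. Alternatives were DESeq2 1.42.0, limma-voom (limma 3.58.1), other scalings and filters, and leaving out each library. The tests were tested on simulated data.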

Additional observations from a re-analysis of the deposited data

How the results depend on the processing

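The Siglech calls in NMO+CL against NMO and against Normal held in all 17 alternatives, in which the adjusted p reached 0.0320 and 9.01e-05. In NMO against Normal the number of members called was 0 with library totals alone (which moved the median log2 fold change of all genes by 0.11, so that Siglech at -0.77 stood -0.87 from it) and ran from 0 to 1 when 1 library was left out, and in NMO+CL against Normal it ran from 1 to 2, the added member being Siglece or Siglecg. Of the other Siglec pathway genes, 2 were called in NMO+CL against NMO. That number was 4 without the filter and with DESeq2, 1 with limma-voom and with only the 6 libraries of those groups, and 1 to 2 when 1 library was left out. St3gal6 was among those gained with DESeq2 (adjusted p = 0.0118), without the filter (0.0173) and with library totals alone (0.0427). The cause of these shifts was not tested. With the replicate block no number of calls changed, and the Cd22 value in NMO+CL against NMO turned to -0.23, as it did with limma-voom (-0.35) and in the range of -0.91 to 0.87 over fits without 1 library. Uncalled values in NMO against Normal that also changed sign in such fits were Siglece (-0.023 to 0.58), Siglecg (-0.013 to 0.18) and St8sia6 (-0.26 to 0.64). As a share of Siglech plus Cd33 alone, Siglech took 90.7% in Normal and 73.6% in NMO+CL. Depth limits Siglec1, Siglecg and Cd22, which had 0 to 66 counts per library, and the 3 libraries per group do not allow an exact p under 0.1.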
